A study of Rattus norvegicus with 23 samples.

Results

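The pulmonary artery (PA) carries blood from the right ventricle to the lung, and the pulmonary vein (PV) returns it to the left atrium. RNA of the 2 vessels of the rat was compared on 8 single-color Agilent arrays, 4 of PA and 4 of PV, on which the brightness of a probe measures the labeled cRNA bound to it. The genes compared were those well above background on all 4 arrays of at least 1 vessel, which were 12339 of the 16544 genes named on the arrays. Of these, 11127 were well above background on all 8 arrays, 690 on every PA array but not on every PV array, and 522 on every PV array but not on every PA array. The study used 12 male Wistar rats, the youngest 8 and the oldest 11 weeks of age. Neither group was treated or carried an altered allele, as far as the labels and methods say. The hearts and lungs were perfused with a cold, calcium-free solution, and soft tissue with nerve and fat was trimmed away under a microscope before the vessels were frozen. Arrays of the left atrium (LA), the sinoatrial node region (SA), the left ventricle (LV) and the right ventricle (RV) of the same study, 15 of the 23 in all, are used here for reference levels. Neither the labels nor the methods say which arrays share an animal, so that the p-values measure the spread between these arrays.

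Near the heart, PA is an elastic artery, with a wall of smooth muscle cells between sheets of elastin that stretch at each beat. The wall of PV holds a sleeve of striated cardiac muscle that runs out from the left atrium, and it is known as a site where atrial fibrillation can start. Striated muscle contracts through sarcomeres and lives mainly on mitochondrial respiration, whereas smooth muscle contracts through its own actin and myosin isoforms under the control of calmodulin and myosin light chain kinase. Both vessels are lined by endothelium and wrapped in a coat of fibroblasts, nerves and fat.

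Levels are given as log2(normalized signal + 1), and differences as PA minus PV on this scale, so that a positive difference means a higher signal in PA and a difference of 1 is a factor of 2. The scale understates the differences of dim genes. A gene was called at a Benjamini-Hochberg adjusted p below 0.05 in a limma fit of the 8 arrays over 15589 genes, and all 12339 genes compared were among these. Where a gene is not well above background on an array, its level there is near noise. Here the dimmest level that still counted as well above background on an array is called its detection limit, and it was between 4.19 and 5.51 on the PA arrays and between 4.02 and 5.47 on the PV arrays. For some genes measured on part of a group, the difference is also given with the other arrays raised to their detection limit. *Dio2*, a deiodinase of brown fat, was among the dimmest genes compared and counted as well above background on all 4 PA arrays, at 5.50, 5.33, 5.07 and 5.99. *Sftpb*, a surfactant protein, was tested but is not one of the 12339 genes, since it counted as well above background on 2 of the PA arrays, and was at 5.11, 5.20, 5.27 and 4.89. Levels of different probes cannot be set against each other, since probes differ in how strongly they bind.

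Between 61.1% and 79.1% of the probes of a PA array, and between 59.8% and 76.2% of those of a PV array, were well above background. The 8 arrays lay on 3 slides in 2 rows, and every slide and row held both vessels. PA1 stood apart from the other PA arrays in genes of atrial muscle. Of 11 genes with the largest differences on the PV side among genes well above background on all 8 arrays, all 11 were highest in PA1 among the PA arrays, and 7 were lowest in PA2 and 4 in PA4. Part of the PV arrays stood apart in genes of fat and nerve, and PV2 alone held a high level of *Bmp10*. These values are given beside the results that they touch, and the part of such tissue in the results was not tested.

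Of the 15589 genes tested, 8118 (52.1%) were called, 4579 (29.4%) with higher signal in PA and 3539 (22.7%) with higher signal in PV. At least 4-fold higher in PA were 470 genes (3.01%), and at least 4-fold higher in PV were 817 (5.24%). The larger number of genes was thus on the PA side, whereas the larger differences were more often on the PV side. Among the 11127 genes well above background on all 8 arrays, 6838 were called, 3850 higher in PA and 2988 higher in PV. Genes that passed only through 1 vessel had to lean that way, and for them the count is a description: 399 of the 690 on the PA side and 386 of the 522 on the PV side were called. The median difference over all genes tested was 0.15, and it was 0.04 after quantile normalization, so that small differences near 0 depend on the scaling. The counts of each gene list below stand beside these shares of 29.4% and 22.7%. Slides and rows are parts of the same 8 arrays, and values within them are a description. *Frzb*, described below, differed by 6.22, 5.16 and 5.49 within slides 1 to 3, and by 6.20 and 5.72 within the rows, and *Mybphl* by -11.45, -10.54 and -9.12 within the slides and by -8.82 and -11.24 within the rows. With the slide as a block 7670 genes were called, and with the row as a block 7705. Leaving out 1 array at a time gave between 7360 (without PA2) and 7856 called genes.

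**Figure D1:**
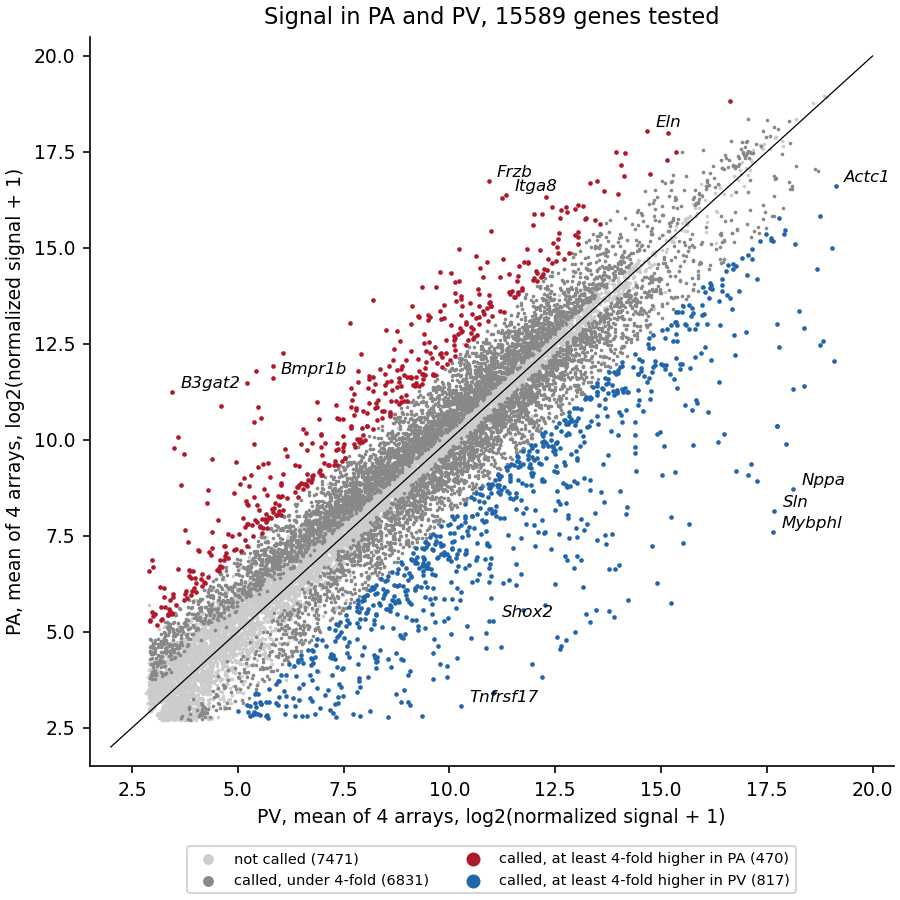
Mean level of each of the 15589 genes tested in PV (x axis) and PA (y axis), both as log2(normalized signal + 1) over 4 arrays, with the line of equal level. The 817 genes called at least 4-fold higher in PV reach further from the line than the 470 called at least 4-fold higher in PA.

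The plot of mean levels shows where the named genes lie. *Mybphl*, *Sln* and *Nppa* are far below the line at the bright end of PV, and *Frzb*, *Itga8* and *Eln* are above it at the bright end of PA. In such whole tissue, fewer cells of a type and less RNA per cell cannot be told apart, and neither can a change of the genes and a change of the cell types.

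The genes of the PA side described first have large differences among the genes well above background on all 8 arrays. *Frzb* encodes a secreted protein that binds Wnt ligands. It was 16.80, 16.91, 16.65 and 16.64 on PA arrays 1 to 4 and 10.32, 10.53, 11.36 and 11.49 on PV arrays 1 to 4. The groups were far apart, by 5.82 (standard error 0.27, limma adjusted p = 1.7e-06), a 56.7-fold higher signal in PA. *Bmpr1b*, a type I receptor for bone morphogenetic proteins, was 11.18, 11.45, 12.04 and 11.72 in PA and 5.99, 5.51, 5.56 and 6.22 in PV. This receptor differed by 5.78 (standard error 0.23, adjusted p = 9.7e-07) and was close to background in PV. *Igfbp2*, which binds insulin-like growth factors, was between 13.54 and 13.74 in PA and between 7.47 and 9.03 in PV (difference 5.45). *Tnfrsf11b*, which encodes osteoprotegerin, a decoy for the osteoclast factor RANKL, differed by 5.40. The matricellular protein gene *Ccn3* differed by 5.07 and *Itga8*, an integrin subunit of smooth muscle, by 5.04. Further genes with large differences were *Abcg4* (4.72), *C1qtnf12* (4.64), *Tes* (4.59), *Spon1* (4.47) and *Fgfr2* (4.39). *Abcg4* is a sterol transporter, *Tes* a protein of focal adhesions, *Spon1* a matrix protein first known from the floor plate and *Fgfr2* a fibroblast growth factor receptor.

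These 11 genes also separated PA from the heart. On every one of them, all 4 PA arrays were above all 19 other arrays. The PV arrays among the 19 were below PA by the choice of the genes. *Frzb* was 10.85 on average in LA, 9.05 in SA, 9.02 in LV and 8.90 in RV, at or below its mean of 10.92 in PV. *Itga8* fell off in another order. Its mean was 11.33 in PV, 9.17 in SA, 8.02 in LA and 7.41 in LV, so that PV held more of it than the chambers did.

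**Figure D2:**
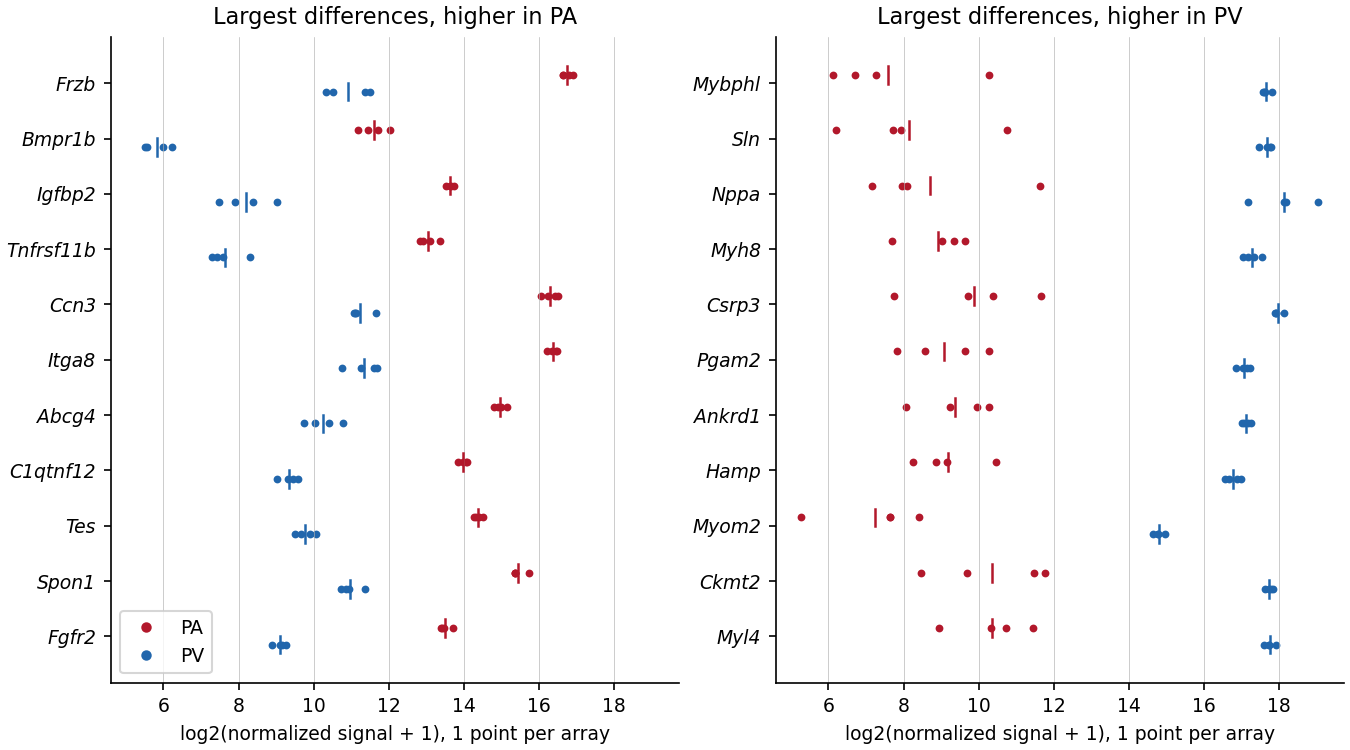
Level of 11 genes on each side, from those with the largest differences among genes well above background on all 8 arrays, as log2(normalized signal + 1), with 1 point per array and a bar at the mean of 4 arrays, PA in red and PV in blue. Genes were chosen without overlap of PA and PV. The PA points of the genes higher in PV are spread widely, with PA1 highest.

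As the plot of the leading genes shows, *Mybphl*, *Sln* and *Nppa* were spread more widely among the PA arrays than among the PV arrays. *Mybphl*, a relative of the cardiac myosin-binding protein that is known from the atria, was 17.58, 17.59, 17.61 and 17.80 in PV and 10.28, 6.72, 7.26 and 6.13 in PA. It had the largest difference of all, 10.05 in favor of PV (standard error 0.81, adjusted p = 2.5e-05), or 1059-fold. *Sln*, the small inhibitor of the calcium pump in atrial muscle, was 10.76 in PA1 and 7.71, 7.93 and 6.20 on the other PA arrays, and between 17.45 and 17.79 in PV. *Nppa*, the precursor of atrial natriuretic peptide, was 11.64, 8.09, 7.97 and 7.16 in PA and 17.17, 19.03, 18.18 and 18.12 in PV. PA1 was thus above the other PA arrays in atrial genes and still far below PV. Without PA1 the differences were larger, -10.94 for *Mybphl*, -10.39 for *Sln* and -10.39 for *Nppa*, against -10.05, -9.52 and -9.41 with it. *Sln* differed by -8.87 without PA4.

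Further genes of the PV side were *Myh8* (-8.35), *Csrp3* (-8.08), *Pgam2* (-7.99), *Ankrd1* (-7.74), *Hamp* (-7.59), *Myom2* (-7.55), *Ckmt2* (-7.38) and *Myl4* (-7.38). Without PA2, *Csrp3* differed by -7.37, *Myom2* by -6.90 and *Ckmt2* by -6.76, and without PA1 *Csrp3* differed by -8.67. Most of the genes named here are genes of striated muscle. *Csrp3* encodes a protein of the Z disc, *Myom2* one of the M band, *Myl4* the atrial essential light chain, *Ankrd1* a cardiac ankyrin repeat protein that is found in both nucleus and sarcomere, and *Pgam2* and *Ckmt2* the muscle forms of phosphoglycerate mutase and mitochondrial creatine kinase. *Myh8* is known as a perinatal myosin heavy chain of skeletal muscle. Its probe was between 17.00 and 17.40 on average in PV, LA, SA, LV and RV alike, and whether it also binds other cardiac myosin heavy chains, which are similar in sequence, cannot be told from these data. *Myl4* was likewise as bright in LV, at 17.92 on average, as in LA, at 17.74. SA means were within a factor of 2 of PV for all 11 genes, LA means for 10, LV means for 7 and RV means for 5.

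Hepcidin, the hormone that closes the iron exporter ferroportin, is encoded by *Hamp* and is known mainly from the liver. Its level was 16.67, 16.99, 16.56 and 16.88 in PV and 10.45, 8.88, 9.15 and 8.24 in PA (standard error 0.42, adjusted p = 3.6e-06). Its mean was 17.03 in SA, 13.47 in LA, 11.41 in LV and 11.97 in RV, so that SA was near PV and the other 3 regions were lower. *Hjv*, which encodes hemojuvelin, the coreceptor that raises hepcidin, was 13.68, 13.87, 13.83 and 13.71 in PV and 8.59, 5.91, 5.92 and 6.14 in PA (-7.13, and -7.78 without PA1). It was high in all 4 heart regions, between 12.67 in LV and 14.15 in LA and SA. The pair thus differed in the chambers although both were higher in PV than in PA. *Rxfp1*, the receptor of relaxin, was between 11.55 and 11.89 in PV and between 4.69 and 5.96 in PA (-6.17). In the chambers its mean was 12.39 in LA and 7.78 in LV.

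For genes dim in 1 vessel only a bound can be given, the mean of the bright group over that of the dim group, with each dim signal raised to the detection limit of its array where it was below it. *B3gat2*, a glucuronyltransferase, was 11.19, 11.51, 11.09 and 11.17 in PA, not well above background on any PV array, and at least 81.4-fold higher in PA. *Lrrtm3*, a leucine-rich repeat protein of synapses, was at least 36.6-fold and *Calml3*, a calmodulin-like protein, at least 26.8-fold higher in PA. *Trim6* (at least 5.49-fold) and *Camkk2* (at least 4.69-fold) followed at lower levels. On the PV side, *Tnfrsf17*, a receptor known from plasma cells, was 9.88, 9.95, 10.54 and 10.69 and was not well above background in PA, at least 44.2-fold higher. It was between 8.57 in LA and 9.70 in SA, and lower in LV, at 6.96, and RV, at 6.20. *Styxl2*, at least 41.0-fold higher in PV, and *Fsd2*, at least 23.6-fold, are genes of striated muscle, and their means in PV and in the 4 heart regions were within 10.19 to 10.47 and 9.33 to 9.62. *Aldh1b1*, a mitochondrial aldehyde dehydrogenase, was at least 35.2-fold higher and the zinc transporter gene *Slc39a2* at least 19.2-fold.

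The contractile genes of smooth muscle were higher in PA almost without exception. Of 29 tested, 27 were called higher in PA and none higher in PV, with a median difference of 2.82 against 0.15 for all genes tested. *Acta2*, smooth muscle actin, was 16.05, 16.11, 15.87 and 16.20 in PA and 12.64, 12.19, 12.33 and 12.58 in PV, 12.3-fold higher (difference 3.62, standard error 0.13, adjusted p = 7.8e-07). *Myh11*, the smooth muscle myosin heavy chain, was between 17.24 and 17.70 in PA and between 13.46 and 14.16 in PV (3.56), and calponin (*Cnn1*) differed by 3.93. In *Cnn1* and *Tagln*, PV was itself above SA, LA and LV. *Cnn1* had a mean of 13.20 in PA, 9.27 in PV, 7.40 in SA, 4.53 in LA and 5.10 in LV, and *Tagln* one of 17.48 in PA, 14.14 in PV, 13.08 in SA, 10.24 in LA and 10.63 in LV.

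The genes of the nitric oxide pathway, by which cyclic GMP relaxes smooth muscle, belong to this list. *Irag1*, the target of the cyclic GMP kinase at the calcium store, differed by 4.06 (16.6-fold), *Pde5a*, the phosphodiesterase inhibited by sildenafil, by 3.93 (15.2-fold) and *Gucy1b1*, a subunit of the nitric oxide receptor, by 2.13 (4.38-fold). *Prkg1*, the kinase itself, was 7.27, 7.33, 6.97 and 7.42 in PA and 6.78, 6.60, 6.42 and 6.76 in PV, a difference of 0.61 (adjusted p = 0.0058) that did not pass after quantile normalization. Desmin (*Des*), which both kinds of muscle make, was between 15.21 and 15.73 in PA and between 15.57 and 15.68 in PV. Its difference of -0.17 was not called (adjusted p = 0.27). *Casq1*, at -0.60, was not called either (adjusted p = 0.10), but was called with higher signal in PV without PV1 and with all 23 arrays in the fit. Of the list, 27 genes were also called higher in PA with any 1 array left out.

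Of 35 receptors and channels that set vascular tone, 20 were called higher in PA and 6 higher in PV (median difference 0.69), beside 29.4% and 22.7% of all genes tested, and 18 were called higher in PA without PA1. The 2 genes of the rat for the angiotensin II type 1 receptor differed strongly from each other. *Agtr1b* was 9.61, 9.51, 9.74 and 10.30 in PA, and in PV it was well above background on 1 array of 4 and lay between 2.98 and 4.39. With the dim arrays raised to the limit, its difference was 4.80. *Agtr1a* was between 9.79 and 10.28 in PA and between 9.51 and 9.77 in PV, a difference of 0.43 (adjusted p = 0.026) that was not called in 8 of the 22 alternatives, among them those without PA1, PA4, PV1 or PV3. The alpha-1 adrenoceptors went opposite ways. *Adra1d* was higher in PA by 4.31 (19.9-fold), whereas *Adra1b* was higher in PV (-1.37) and so was *Adra1a* (-1.52).

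The thromboxane receptor gene *Tbxa2r* was higher in PA by 3.19 and prostacyclin synthase (*Ptgis*), which makes a dilator, by 3.04. *Kcnmb1*, the beta subunit that tunes the large-conductance potassium channel of smooth muscle to calcium, was 11.83, 11.99, 11.57 and 11.79 in PA and 7.97, 7.28, 8.03 and 8.06 in PV (3.96). The channel of *Kcnj8* and *Abcc9*, which opens when ATP falls, differed by 2.10 in its pore subunit and by 0.69 in its regulatory subunit. The endothelin receptors did not pass the test. *Ednra* was between 9.51 and 9.87 in PA and between 9.02 and 10.00 in PV (0.28, adjusted p = 0.31), and *Ednrb* differed by 0.12 (adjusted p = 0.78).

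Nearly all elastic fiber genes were higher in PA. Elastic fibers are built from elastin on a scaffold of fibrillin microfibrils, and fibulins and LTBP proteins place and bind them. Of 20 such genes tested, 19 were called higher in PA and none higher in PV (median difference 1.99). *Eln*, elastin itself, was 17.71, 18.04, 18.25 and 18.16 in PA and 14.28, 13.58, 15.56 and 15.25 in PV, a difference of 3.37 (standard error 0.42, adjusted p = 2.8e-04). PV1 and PV2 were lower than PV3 and PV4 in *Eln*, and likewise in *Ltbp2*, which was 8.26 and 8.37 against 10.12 and 10.33 and differed from PA by 3.95. *Fbln5*, needed for elastic fiber assembly, differed by 3.74 and *Efemp2* by 2.87. The count was 19 in each of the 22 alternatives.

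Of 14 collagens tested, 8 were called higher in PA and 2 higher in PV (median difference 0.76), beside 29.4% and 22.7% of all genes tested. *Col18a1*, the basement membrane collagen that gives endostatin, was 14.88, 15.02, 14.44 and 14.77 in PA and 10.42, 10.40, 10.85 and 10.83 in PV (4.15, 17.8-fold). The fibrillar *Col1a1* differed by 0.67 (adjusted p = 0.011, not called with the probe of the highest mean) and *Col1a2* by 0.38 (adjusted p = 0.061), and both were bright in each vessel. *Col5a3* (-1.15) and *Col4a4* (-1.01) were the 2 that were higher in PV. Among 27 proteoglycans and matricellular proteins, 21 were called higher in PA and none higher in PV (median difference 2.01). Osteopontin (*Spp1*), a phosphoprotein of bone and injured vessels, was 12.79, 12.46, 11.68 and 12.06 in PA and 4.84, 5.88, 5.97 and 7.58 in PV, where 3 arrays were well above background. Its difference was 6.18, and 6.03 with the dim array raised to the limit. *Comp* (3.46) and fibromodulin (*Fmod*, 3.44), known from tendon and cartilage, were also higher in PA, and decorin (*Dcn*) was not called (0.15).

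**Figure D3:**
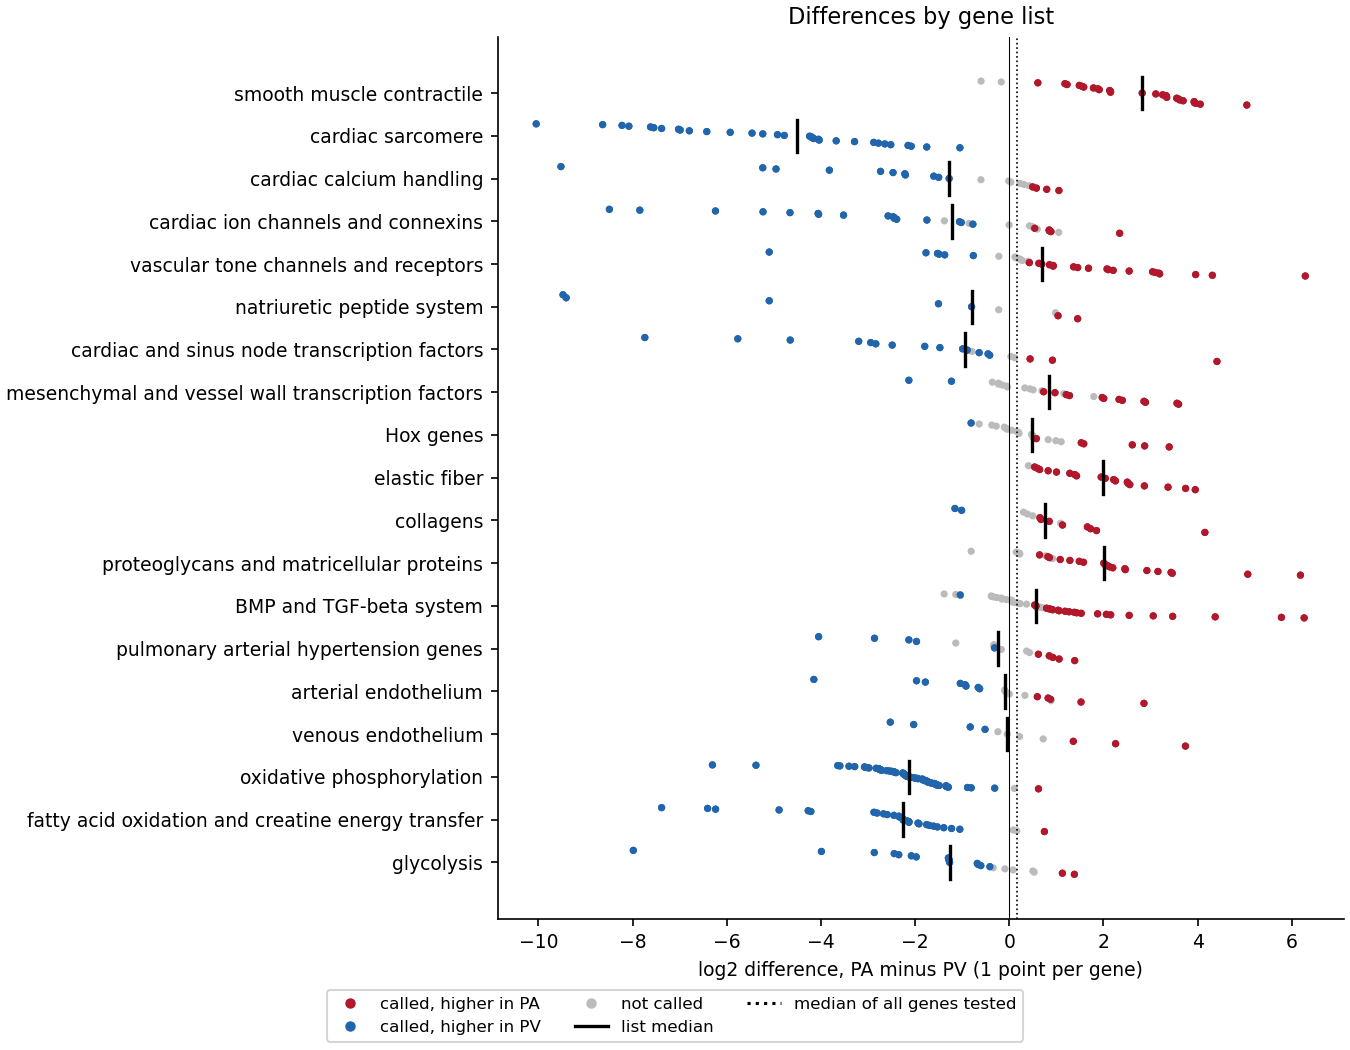
Difference of each tested gene, PA minus PV in log2 units, for 19 gene lists, with called genes in color and the list's median as a bar. Nearly all smooth muscle and elastic fiber genes lie to the right of 0 and nearly all sarcomere and respiratory chain genes to the left, whereas the endothelial lists lie on both sides.

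The plot by gene list sets these groups beside those that follow. The BMP and TGF-beta system, whose ligands act through paired type I and type II receptors and SMAD proteins, had 48 genes tested. Of these, 23 were called higher in PA and 1 higher in PV (median difference 0.57), beside 29.4% and 22.7% of all genes tested. Among the ligands, *Bmp3*, which opposes other bone morphogenetic proteins, was 10.98, 11.18, 10.47 and 10.89 in PA and well above background on 1 of 4 PV arrays, with a difference of 5.86 once the dim arrays were raised to the limit. *Inhba*, the subunit of activin A, differed by 3.47 and *Tgfb3* by 1.53. *Inha*, the alpha subunit of inhibin, was the gene called higher in PV (-1.04). Without PA1, 20 genes of the list were called higher in PA.

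The receptors were uneven. *Bmpr1b* was among the leading genes, *Acvrl1*, the type I receptor of endothelium, was 13.15, 13.21, 13.14 and 13.21 in PA and 12.28, 11.94, 12.01 and 12.24 in PV (1.06, adjusted p = 7.8e-05), and the type II receptors *Bmpr2* (-0.17, adjusted p = 0.33) and *Tgfbr2* (0.09, adjusted p = 0.50) did not pass. Of the extracellular inhibitors, *Fstl3*, which binds activin, differed by 3.06, and of the target genes *Id4* differed by 2.55. *Bmp10*, a ligand that the atria make, was 10.83 in PV2 and between 3.04 and 5.47 on the other PV arrays, and between 2.87 and 5.71 in PA. It was not called (adjusted p = 0.52), and its PV mean rests on 1 array.

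In some genes, variants cause pulmonary arterial hypertension, a narrowing of the small lung arteries. Of 16 such genes tested, 5 were called higher in PA and 5 higher in PV (median difference -0.24), beside 29.4% and 22.7% of all genes tested, and the count in PV was 3 with normexp background correction. *Cav1*, the coat protein of caveolae, was higher in PA by 1.39 and *Eif2ak4* by 0.93. On the PV side, *Abcc8*, the regulatory subunit of a potassium channel, differed by -4.05, *Kdr*, the receptor of VEGF, by -2.86 and *Tbx4*, a transcription factor of lung mesenchyme that was well above background on 3 PA arrays, by -2.13. *Kcna5* was 9.38, 9.12, 9.01 and 8.87 in PA and 7.93, 8.01, 8.21 and 8.84 in PV (0.85, adjusted p = 0.012), and its call was lost with all 23 arrays in the fit (adjusted p = 0.060). The channel that *Abcc8* regulates, *Kcnj11*, was between 5.92 and 6.63 in PA and between 12.29 and 12.82 in PV (-6.24).

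Transcription factors were compared in lists of mesenchymal, Hox and cardiac factors. Of 26 mesenchymal factors tested, 12 were called higher in PA, 2 higher in PV and 12 not (median difference 0.85), beside 29.4% and 22.7% of all genes tested called higher in PA and in PV. The forkhead factors *Foxc1* and *Foxc2*, needed for the outflow tract and the great arteries, differed by 3.60 and 3.56. *Foxc1* was 13.65, 13.46, 13.10 and 13.24 in PA and 9.72, 9.97, 9.44 and 9.94 in PV. *Tcf21*, a factor of epicardial fibroblasts, was higher in PV (-1.23). Hox genes pattern the body from head to tail. Of 24 tested, 6 were called higher in PA, beside 29.4% of all genes tested, 1 was called higher in PV and 17 were not called. *Hoxa2* was 12.05, 11.92, 12.20 and 12.10 in PA and 8.77, 8.75, 8.39 and 8.78 in PV (3.40, 10.5-fold), *Hoxb3* differed by 2.87 and *Hoxb4* by 2.61. *Hoxb9*, which lies toward the tail end of its cluster, was also called higher in PA, by 1.58, and by 0.07 within slide 1. The call of *Hoxb7* on the PV side (-0.81, adjusted p = 0.040) was lost in 8 of the 22 alternatives, among them those without PA1, PA2, PA4, PV1, PV3 or PV4.

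Of 20 cardiac and sinus node factors tested, 14 were called higher in PV and 3 higher in PA (median difference -0.94). *Shox2*, which keeps pacemaker cells from becoming working muscle, was between 10.91 and 11.16 in PV. In PA it was between 5.09 and 5.67 and well above background on 2 arrays, and the difference was -5.67 with the dim arrays raised to the limit. SA had a mean of 11.40, LA one of 7.90 and the ventricles were near background. *Nkx2-5*, well above background on 3 PA arrays, differed by -4.65, *Gata5* by -3.20 and *Gata4* by -1.80. *Tbx3*, a factor held to be important for the maturation of the sinus node, differed by -0.99. *Isl1*, a factor of the second heart field and of the sinus node, went the other way. It was 8.58, 8.74, 8.89 and 8.59 in PA and between 3.20 and 5.02 in PV, where 1 array was well above background, and the difference was 3.59 with the dim arrays raised to the limit. *Gata6*, at 0.03, did not pass the test.

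All 32 sarcomere genes tested were called higher in PV, 30 of them at least 4-fold, with a median difference of -4.51, and the number was the same in every alternative. *Myl7*, the atrial regulatory light chain, was 18.98, 19.16, 19.15 and 19.07 in PV and 14.88, 11.30, 11.70 and 10.39 in PA (-7.02, standard error 0.86, adjusted p = 2.6e-04). PA1 was again the highest of the PA arrays. *Tnni3*, cardiac troponin I, was between 18.35 and 18.42 in PV and 12.95, 9.15, 11.22 and 12.25 in PA (-6.99). PA2 was the lowest of the PA arrays in *Tnni3* and in both ventricular light chains, with *Myl2* at 9.44 against 12.99 to 13.61 on the other PA arrays and *Myl3* at 8.01 against 11.29 to 11.94. Without PA2 the differences were smaller, -6.24 for *Tnni3*, -2.73 for *Myl2* and -2.38 for *Myl3* against -6.99, -3.68 and -3.29, and without PA1 *Myl7* differed by -7.96. *Mybpc3* was 8.94, 4.25, 7.95 and 8.09 in PA and between 15.43 and 15.60 in PV. Cardiac actin (*Actc1*) differed least among these examples. It was between 16.43 and 16.71 in PA and between 19.07 and 19.17 in PV (-2.52), and its probe may also bind other actins, which are nearly identical. The summed signal of the list was between 302280 and 426833 on the PA arrays and between 4554361 and 4854384 on the PV arrays.

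The promoters of these genes are printed because the list moved together. In RefSeq windows of 300 bases (250 before and 50 after the start of the gene, rat build GRCr8), 24 of the 32 genes had an entry. Both strands were searched for the CArG box, the site of serum response factor, and for the MEF2 site, each 10 bases long. A CArG box lay in 3 of the 24 (12.5%) against 548 of 33469 promoters in all (1.64%), and a MEF2 site in 5 (20.8%) against 1100 (3.29%). No promoter of the list held both. Of the 22 smooth muscle genes with an entry, 0 held either motif in this window. With so few promoters and such low shares among all promoters, this says little about that list. A match is a description of the sequence and not a site shown to be bound. Shown here are 6 of the 8 windows, with the motif in capitals and 15 bases on each side in lower case. CArG boxes are shown for *Actc1* (chr3:121271801-121271840, minus strand), *Ldb3* (chr16:9924707-9924746, minus strand), a Z disc gene, and *Myl3* (chr8:119616982-119617021, plus strand). MEF2 sites are shown for *Mybpc3* (chr3:97550937-97550976, plus strand), *Smpx* (chrX:41107214-41107253, minus strand), a small muscle protein, and *Xirp2* (chr3:72534097-72534136, plus strand), a protein of the intercalated disc.
Actc1: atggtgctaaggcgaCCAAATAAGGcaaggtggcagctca
Ldb3: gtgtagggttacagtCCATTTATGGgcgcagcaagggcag
Myl3: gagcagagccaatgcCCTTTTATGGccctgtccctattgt
Mybpc3: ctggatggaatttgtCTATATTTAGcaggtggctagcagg
Smpx: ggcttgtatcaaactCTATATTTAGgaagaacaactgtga
Xirp2: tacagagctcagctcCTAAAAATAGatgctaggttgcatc

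All of the genes printed were higher in PV. The differences were -2.52 for *Actc1*, -4.04 for *Ldb3* and -3.29 for *Myl3*, and -8.23 for *Mybpc3*, -8.64 for *Smpx* and -7.62 for *Xirp2*. In PA, *Mybpc3* and *Smpx* were well above background on 3 arrays and *Xirp2* on 1, and with the dim arrays raised to the limit the last 3 values were -7.99, -8.52 and -6.21. Without PA2, *Mybpc3* differed by -7.21 and *Myl3* by -2.38, and without PA1 *Smpx* differed by -9.23. The other 2 genes with a MEF2 site were *Synpo2l* (-4.78) and *Hspb7* (-1.75).

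Calcium handling genes, which release calcium at each beat and take it up again, were higher in PV in part. Of 21 tested, 11 were called higher in PV and 4 higher in PA (median difference -1.28), beside 22.7% and 29.4% of all genes tested. The count in PA was 2 with normexp background correction, where *Jph1* and *Camk2d* lost their calls. *Jph1* also lost its call without PA2, PA3, PA4, PV1, PV3 or PV4. *Ryr2*, the release channel of the calcium store, was 14.53, 14.19, 14.41 and 14.53 in PV and 9.55, 9.04, 9.01 and 9.12 in PA (-5.24, 37.7-fold). *Atp2a2*, the calcium pump, was bright in both vessels, between 15.30 and 15.74 in PA and between 17.84 and 18.00 in PV (-2.47), and its inhibitor *Pln* differed by -2.73. Triadin (*Trdn*) differed by -4.95 and calsequestrin 2 (*Casq2*) by -2.21. *Jph2*, which ties the calcium store to the cell surface, was between 9.90 and 10.13 in PA and between 9.94 and 10.15 in PV (-0.01, adjusted p = 0.92). The L-type channel gene *Cacna1c*, which smooth muscle also uses, was not called (0.42, adjusted p = 0.058) but was called higher in PA without PA1 (0.57, adjusted p = 0.0055), and its accessory subunit *Cacna2d1* was higher in PA by 1.05.

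Of 30 cardiac ion channel and connexin genes tested, 17 were called higher in PV and 5 higher in PA (median difference -1.22). The subunits of the acetylcholine-activated potassium channel of the atria, *Kcnj3* and *Kcnj5*, differed by -5.23 and, with the dim PA arrays raised to the limit, by -8.06. *Hcn4*, the main pacemaker channel, was 9.09, 9.82, 8.57 and 9.27 in PV and between 6.47 and 6.96 in PA (-2.39), and its mean was 10.34 in SA and 8.20 in LA. The connexins went in opposite directions. *Gja1* was higher in PV (-1.75), whereas *Gja5*, which both atrial muscle and arterial endothelium use, was 12.25, 11.39, 11.54 and 11.69 in PA and 9.56, 9.04, 9.16 and 9.73 in PV (2.34, adjusted p = 7.6e-05). *Kcnh2* (0.88) and *Gjc1* (0.85) were also higher in PA.

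Of the natriuretic peptide transcripts, *Nppa* and *Nppb* were higher in PV, and part of the receptors was higher in PA. Of 9 genes of this system, 5 were called higher in PV and 2 higher in PA (median difference -0.80). *Nppb* was 14.26, 16.71, 14.89 and 15.06 in PV and 8.02, 4.54, 5.53 and 4.92 in PA, where 2 arrays were well above background (-9.48, and -10.23 without PA1). PV2 was the highest array in both *Nppa* and *Nppb*. *Nppc*, the precursor of the C-type peptide, was well above background on 2 PA arrays and no PV array and was not called (0.98, adjusted p = 0.24). *Corin*, the protease that activates the precursor, differed by -1.50. The guanylyl cyclase receptors *Npr1* (1.45) and *Npr2* (1.04) were higher in PA. *Npr3*, which clears the peptides, was 11.15, 10.74, 10.93 and 11.15 in PV and between 5.19 and 6.43 in PA (-5.10), where 3 arrays were well above background.

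Most genes of energy metabolism were higher in PV. Of 72 genes of oxidative phosphorylation tested, 70 were called higher in PV and 1, *Ndufa10*, higher in PA (median difference -2.13), and the call of *Ndufa10* was lost in 7 alternatives, among them those without PA4 and without any 1 of the PV arrays. The muscle forms of cytochrome oxidase subunits differed most, *Cox6a2* by -6.31 (-5.56 without PA2) and *Cox8b* by -5.38. Of members that most tissues express, *Cycs*, cytochrome c, was 13.62, 13.23, 13.14 and 13.60 in PA and 16.52, 16.72, 16.84 and 16.65 in PV (-3.28). *Ndufs1* differed by -3.64 and *Ndufv3* by -3.60. These differences were smaller than those of the muscle forms but larger than the list median of -2.13. Of 32 genes of fatty acid oxidation and creatine energy transfer, 29 were called higher in PV and 1 higher in PA (median difference -2.26). Myoglobin (*Mb*) differed by -6.24, the fatty acid carrier *Fabp3* by -6.41 and *Cpt1b*, the muscle form of the gate to mitochondrial oxidation, by -4.89. *Cpt1a*, its form in liver and other tissues, was higher in PA by 0.75 (adjusted p = 0.018), and its call was lost with the slide as a block (adjusted p = 0.054) and with the replicate number as a block (adjusted p = 0.057). *Ppargc1a*, a coactivator that raises mitochondrial genes, was 9.56, 9.47, 9.18 and 9.33 in PV and between 6.60 and 6.98 in PA (-2.59). Of 23 glycolytic genes, 16 were called higher in PV and 2 higher in PA (median difference -1.27). *Eno3*, the muscle enolase, differed by -3.99, whereas the glucose transporter *Slc2a1* (1.38) and *Pfkfb3* (1.13), which speeds up glycolysis, were higher in PA.

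The muscle of PV was compared with the chambers in genes known from atrial or ventricular muscle. *Myl7*, *Mybphl* and *Nppa* had PV means of 19.09, 17.64 and 18.13, against 18.83, 17.19 and 18.59 in LA. *Mybphl* was 6.19 in LV and 7.40 in RV, within the range of 6.13 to 10.28 in PA. The ventricular light chain *Myl2* was 15.82, 15.85, 16.27 and 15.85 in PV, with means of 14.37 in LA, 15.70 in SA, 19.10 in LV and 18.90 in RV. *Strit1*, a micropeptide of ventricular muscle, was well above background on 1 PA array and no PV array, and its mean was 13.56 in LV and 13.17 in RV. *Irx4*, a ventricular transcription factor, was likewise near background in both vessels, on 2 PA arrays and no PV array well above it, with means of 12.44 in LV and 12.31 in RV. Of the 8 markers of ventricular muscle, 4 were called higher in PV and 3 higher in PA, beside 22.7% and 29.4% of all genes tested. The 3 were *Irx2*, *Irx4* and *Hey2*, which smooth muscle also makes. The call of *Irx4* was lost with the dim arrays raised to the limit (0.60, adjusted p = 0.18). It was also lost after quantile normalization and without PV2 or PV4. Summed signals of the 8 markers were 6060 to 27572 in PA and 415203 to 450159 in PV.

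**Figure D4:**
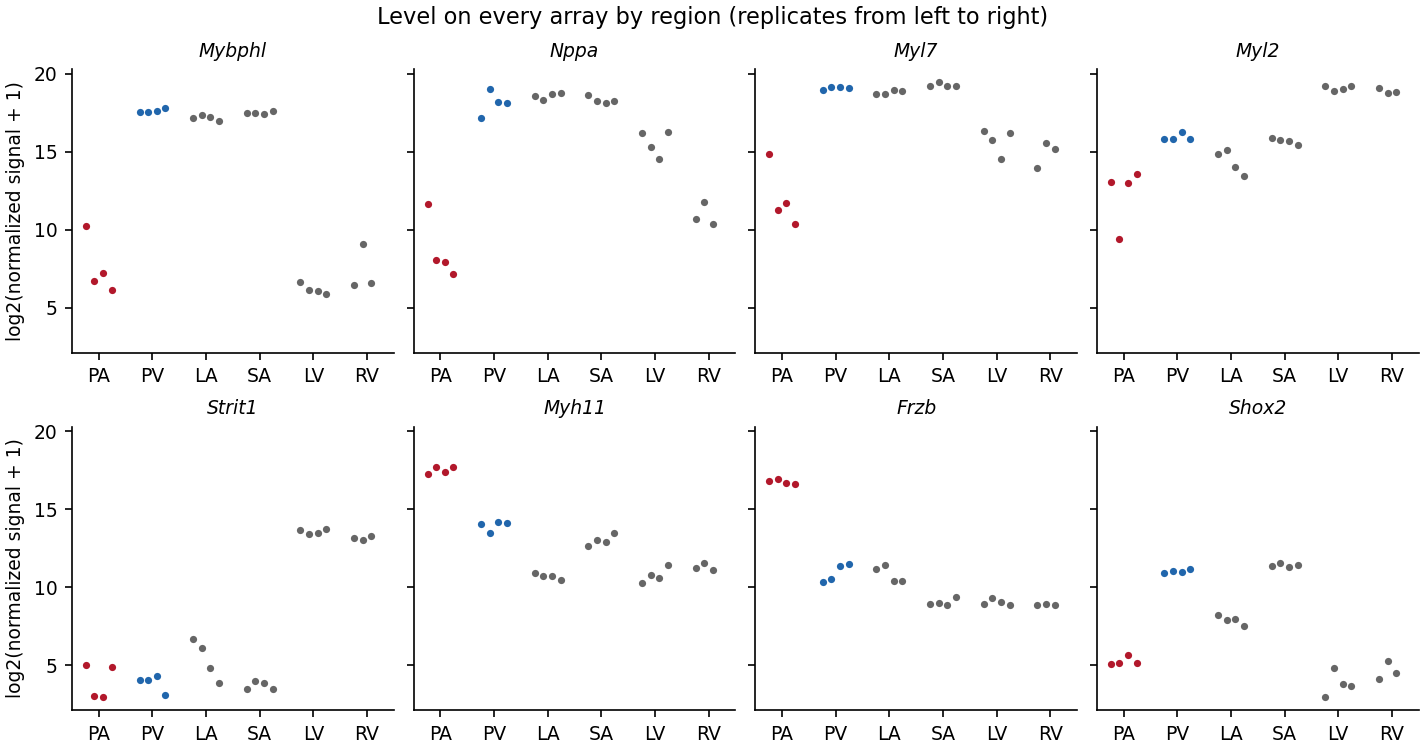
Level of 8 genes on each array of PA, PV, LA, SA, LV and RV, as log2(normalized signal + 1), with replicates from left to right within a region (4 arrays each, 3 for RV). PV lies with LA and SA in *Mybphl*, *Nppa* and *Myl7*, PA1 stands above the other PA arrays there, PA2 lies below them in *Myl2*, and *Strit1* is near background in PA and PV.

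As the plot by region shows, *Myh11* and *Frzb* were highest in PA on every array. *Shox2* was at a like level in PV and SA, 11.03 and 11.40 on average.

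Endothelial genes were called on both sides. Here too the shares of all genes tested were 29.4% higher in PA and 22.7% higher in PV. Of 12 general markers, 1 was called higher in PA, *Nos3* (0.49, not called in 10 of the 22 alternatives, PA1 left out among them), and 5 higher in PV, and their summed signal was between 31801 and 57068 in PA and between 45978 and 55319 in PV. *Pecam1* was 13.79, 12.68, 13.16 and 12.88 in PA and 13.18, 13.13, 12.90 and 13.26 in PV (0.01, adjusted p = 0.98), and *Erg*, a transcription factor of all endothelium, differed by 0.00 (adjusted p = 0.99). *Vwf* was 14.73 in PA1 and between 13.81 and 13.87 on the other PA arrays (0.22, adjusted p = 0.43), and it was called, at 0.92, with the probe of the highest mean. *Kdr*, which capillaries carry at high levels, was between 13.43 and 13.60 in PV and between 10.36 and 10.98 in PA.

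Genes known to mark arterial or venous endothelium were also tested. Of 19 arterial genes, 5 were called higher in PA and 8 higher in PV (median difference -0.09), beside 29.4% and 22.7% of all genes tested. *Jag1* (1.52) and *Hey2* (2.86, well above background on 3 PV arrays), which smooth muscle also makes, were higher in PA. *Efnb2*, the ephrin of arteries, was between 7.62 and 7.88 in PA and between 7.56 and 8.12 in PV (0.00, adjusted p = 0.99), and *Notch4* (-1.78) and *Depp1* (-4.15) were higher in PV. *Sox17* was well above background on 2 PV arrays and no PA array, and its call was lost with the dim arrays raised to the limit. The probes of *Cxcl12* disagreed, with differences from -2.34 to 1.62, and its call of -1.04 rests on the brightest probe of each array. Of 11 venous genes, 3 were called higher in PA and 4 higher in PV (median difference -0.04), beside the same shares. *Nr2f2*, which sets venous fate, was 11.36, 11.16, 11.10 and 11.15 in PA and 12.05, 11.94, 12.03 and 12.08 in PV (-0.83, adjusted p = 1.5e-04), and *Ephb4* differed by -0.52. *Vcam1* (3.74) and *Flt4* (2.26), a receptor of lymphatic endothelium, were higher in PA.

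Of 8 fibroblast markers, 4 were called higher in PA and 1, *Pdgfra* (-0.82), higher in PV, beside 29.4% and 22.7% of all genes tested. Of 8 pericyte markers, 4 were called higher in PA, among them *Cspg4* (2.92) and *Pdgfrb* (2.18), and 3 higher in PV, *Vtn* (-5.18), *Higd1b* (-3.23) and *Rgs5* (-0.71), the last not called in 7 of the 22 alternatives, among them those without PA1, PA2, PA3, PV1, PV3 or PV4. Summed signals were 496322 to 528759 in PA and 295457 to 420372 in PV for fibroblasts, and 100610 to 123099 and 27186 to 32843 for pericytes.

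Nerve genes varied among the PV arrays. Of 17 markers of autonomic neurons, 5 were called higher in PV and none higher in PA, beside 22.7% of all genes tested that were called higher in PV. Without PV3, 8 were called. The summed signals overlapped, at 4996 to 9136 in PA and 3943 to 32002 in PV. *Dbh*, which makes noradrenaline, was 10.24, 10.19, 8.81 and 11.43 in PV and 4.01, 7.82, 5.39 and 5.26 in PA, where 2 arrays were well above background (-4.55, adjusted p = 0.0025, and -5.28 without PA2). The neurofilament gene *Nefm* was 6.56 in PV3 and between 8.93 and 10.18 on the other PV arrays, so that PV3 lay within the PA range of 4.91 to 7.15. Its difference was -2.83, and -3.52 without PV3. Neuropeptide Y (*Npy*) was lowest in PV3 as well, at 10.15 against 12.11 to 13.74, and was not called (-0.63, adjusted p = 0.53). *Stmn2*, a microtubule regulator of neurons, was not called either (0.45, adjusted p = 0.58, and -0.14 without PV3). *Snap25*, a protein of nerve endings, differed by -2.55 (adjusted p = 0.024), and by 0.13 within slide 3, which held PV3, PA1 and PA2. It differed by -3.28 without PV3. Its call was lost without PA1, PA3, PA4, PV1, PV2 or PV4. PA2 was the highest PA array in *Dbh*, *Nefm* and *Snap25*. Of 12 Schwann cell markers, 7 were called higher in PV and 1, *Mag* (0.52), higher in PA, with summed signals of 3924 to 6088 in PA and 14511 to 19694 in PV. *Mbp*, a myelin protein, was 13.39, 12.90, 13.05 and 13.36 in PV and 8.25, 10.23, 10.53 and 7.02 in PA (-4.16, and -3.50 without PA4), and *Sox10* differed by -1.96. PV3 was not low in these genes.

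Several genes of fat cells varied widely among arrays of 1 vessel. *Ucp1*, the uncoupling protein of brown fat, was 11.14, 12.34, 13.23 and 13.33 in PA and 12.42, 12.32, 8.16 and 8.35 in PV. PV1 and PV2 thus lay within the PA range and PV3 and PV4 far below it, and the difference of 2.20 was not called (adjusted p = 0.14). Of the 9 brown fat markers, 2 were called higher in PA and 3 higher in PV, beside 29.4% and 22.7% of all genes tested. The 2 were *Dio2*, whose call was lost with the dim arrays raised to the limit (0.58, adjusted p = 0.18), and *Slc36a2*, whose call was lost in 6 alternatives, among them those without PA3, PA4 or PV4. The other 3, *Cox8b*, *Cpt1b* and *Cidea*, are also made by heart muscle. *Adipoq*, which fat cells secrete, was between 10.66 and 11.63 in PA and 10.88, 10.09, 8.38 and 10.84 in PV (1.25, adjusted p = 0.095). *Fabp4*, a fatty acid carrier that capillary endothelium also makes, was between 11.31 and 12.12 in PA and between 13.66 and 13.97 in PV. Of 10 white fat markers, 2 were called higher in PA and 3 higher in PV, and the count in PA was 1 without PA2 or PA4, 4 without PV4 and 5 with the slide as a block. Summed signals were 12224 to 26310 in PA and 284045 to 323585 in PV for brown fat, and 32671 to 40437 and 31416 to 48224 for white fat. The sum for brown fat includes *Cox8b* (-5.38) and *Cpt1b* (-4.89), and the values of *Ucp1* and *Dio2* were 2.20 and 2.11.

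**Figure D5:**
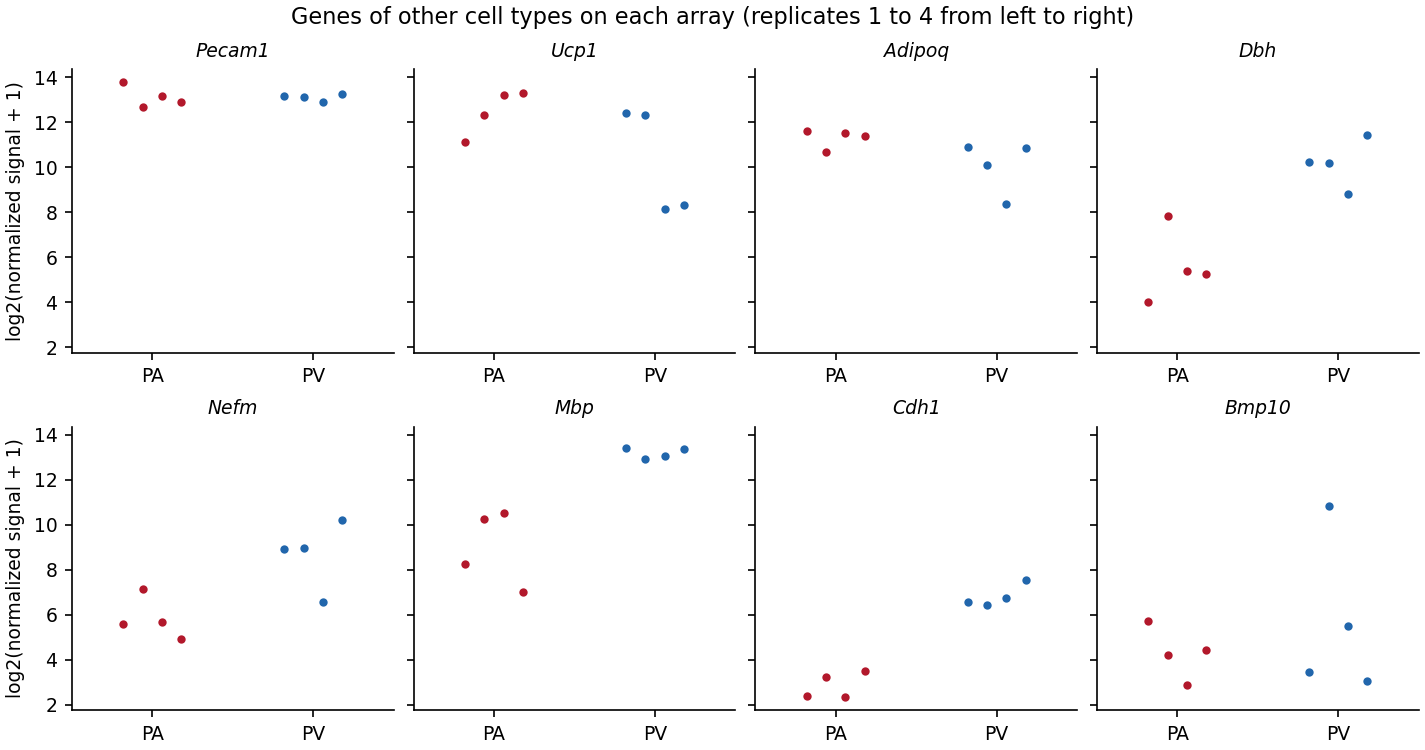
Level of 8 genes of other cell types on PA arrays (red) and PV arrays (blue), as log2(normalized signal + 1), replicates 1 to 4 from left to right. *Pecam1* is level between the vessels, *Ucp1* is low in PV3 and PV4, *Dbh* and *Nefm* are lowest in PV3 among the PV arrays, and *Bmp10* is high in PV2 alone.

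The plot of other cell types gives the arrays behind these values. In all genes tested, 29.4% were called higher in PA and 22.7% higher in PV. Of 10 mesothelial markers, 3 keratins were called higher in PA, *Krt18* (2.65), *Krt8* (2.11) and *Krt7* (1.57, well above background on 1 PV array), and *Wt1* was called higher in PV (-2.02, well above background on 3 PA arrays), while *Msln*, the defining marker, was between 11.13 and 12.98 in PA and between 11.22 and 12.74 in PV. The summed signal of the list was 5231 to 16178 in PA and 4034 to 11034 in PV. Of 14 lung epithelial markers, 4 were called higher in PA and 2 higher in PV, near or below these shares, and 2 were called higher in PA without PA3. One of the 4 was *Sftpb* (1.16), which lost its call with the dim arrays raised to the limit (0.33, adjusted p = 0.33). The summed signals nearly coincided, 2565 to 3210 in PA and 2550 to 3127 in PV. *Cdh1*, E-cadherin, was 6.57, 6.41, 6.75 and 7.53 in PV and not well above background in PA, at least 4.04-fold higher in PV, while *Sftpc* differed by 1.16 in favor of PA, a call that was lost without PA3 and with the slide as a block.

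Of 12 markers of resident macrophages, 6 were called higher in PA and none higher in PV (median difference 0.60), beside 29.4% of all genes called higher in PA and a median of 0.15. *Cx3cr1*, a chemokine receptor, differed by 1.37 and *Lyve1* by 0.93, and the list had summed signals of 48025 to 55235 in PA and 27213 to 30812 in PV. Of 8 mast cell markers, 4 were called higher in PV, beside 22.7% of all genes, and none higher in PA. *Cma1* (-2.16) and *Tpsab1* (-2.02) kept their calls in every alternative, *Mcpt1* lost its call with normexp background correction, and *Tpsb2* lost it in 7 alternatives, among them those without PA1 or any 1 of the PV arrays. The list had summed signals of 703 to 1180 in PA and 1172 to 1892 in PV. Of 9 lymphocyte markers, 2 were called higher in PA and 1 higher in PV, beside 29.4% and 22.7% of all genes. None was called higher in PA without PA1, PA2, PA3 or PV2, whereas 4 were without PA4. With 1 array left out, the count higher in PV was between 0 and 3. *Cd8a*, the gene called higher in PV, lost its call without PA2, PV2 or PV3 and with normexp background correction. Its call was also lost with the dim arrays raised to the limit (-0.34, adjusted p = 0.42). Of 7 erythroid genes, 1, *Hbb*, was called higher in PV (-1.75, and -2.36 without PA1), and it was 10.62 in PA1 against 7.57 to 8.59 on the other PA arrays. Without PA1, 4 erythroid genes were called, and the call of *Hbb* was lost with any other array left out. Among 8 cartilage genes, 3 were called higher in PA and 2 higher in PV, and among 9 skeletal muscle genes 1 was called higher in PA and 2 higher in PV. These 2 were *Acta1* (-3.56), skeletal actin, which heart muscle also makes, and *Myh2*, a skeletal myosin that all 8 arrays measured near background. The call of *Myh2* was lost with the dim arrays raised to the limit (-0.09, adjusted p = 0.87) and with any array but PA4 left out. Of 18 immediate early genes, which dissection can raise, *Dusp1* (1.43) and *Nr4a2* (1.01) were called higher in PA and none higher in PV, and *Fos* ranged from 8.98 to 11.78 in PA and from 7.42 to 11.59 in PV.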

How the data were processed

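Total RNA was labeled with Cy3 and hybridized to single-color Agilent rat arrays. The spot intensity values were made by the authors with Agilent Feature Extraction 11.0.1.1 (version per the submitters' processing notes), which subtracts background, and the deposited values are scaled to a common 90th percentile of each array. They are not log transformed. Of 45598 probes on the array, 45440 had a value on every array, and 21047 of these matched a RefSeq symbol and gave 16544 genes. Several probes stood for 3638 genes, and the brightest of them on each array was taken.

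Values were compared as log2(intensity + 1) with limma 3.58.1 (lmFit and eBayes, R 4.3.3) on the 4 PA and 4 PV arrays. Genes that passed a level of 4 on any of the 8 arrays were tested. Tables and figures were made with Python 3.11.15, pandas 2.3.3 and matplotlib 3.10.9. The fit was tested on simulated data. Genes are named by these rules: the 12 largest differences in each direction among called genes well above background on all 8 arrays without overlap of the groups; the 5 largest bounds in each direction; and, from each gene list, the 4 called members with the largest differences in each direction and further members that a sentence needs. Results for 3 genes that these rules name are not reported here. The genes and lists were chosen with earlier results of these data known. Labels give replicate numbers 1 to 4 in both groups, but do not say whether a number marks the same animal. Same-numbered PA and PV arrays did not deviate together (correlations -0.11, -0.11, -0.04 and 0.06). Such correlations cannot tell whether arrays share an animal, and the numbers were not used as pairs. Alternatives were another scaling, quantile normalization, another background correction, other filters, another pseudocount, another choice of probe, all 23 arrays in the fit, blocks for replicate number, slide and row, another prior variance, and each array left out. The number of arrays limits the precision. No table of protein sequences was used here.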

Additional observations from a re-analysis of the deposited data

Results flagged for a closer look

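In 36 of 516 groups of 4 arrays (6.98%), for the genes named, 1 array lay far from the other 3, with a gap to the nearest of them that took most of the range of the group (above Dixon's critical value). Chance gives about 1 in 20 such groups, which is 25.8 here. PA3 was the array apart in 7 cases, PA1 and PV2 in 6 each, PA2, PV1 and PV3 in 4 each, PA4 in 3 and PV4 in 2. Values are log2(normalized signal + 1), with the range of the other 3 arrays where it is given.

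Among genes of striated muscle, PA2 was low in *Myl2* (9.44 against 12.99 to 13.61) and in *Myl3* (8.01 against 11.29 to 11.94). PV3 was high in *Myl2* (16.27) and *Csrp3* (18.14), PV4 in *Mybphl* (17.80) and PV1 in *Hrc* (15.88). PA1 was high in *Hjv* (8.59 against 5.91 to 6.14).

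Among genes of smooth muscle, PA3 was low in *Cnn1* (12.83), *Tagln* (17.31) and *Kcnj8* (13.99), and PV2 was low in *Tagln* (13.60), *Kcnmb1* (7.28) and *Pdgfrb* (11.28). Among genes of endothelium, PA1 was high in *Vwf* (14.73 against 13.81 to 13.87) and in *Tie1* (8.18 against 6.97 to 7.12).

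Of the transcription factors, *Hand1* was low in PA4 (7.19), *Hoxa2* low in PV3 (8.39), *Shox2* high in PA3 (5.67), *Gata6* low in PA1 (9.63) and *Pparg* low in PA3 (10.22). *Hoxb9* was 4.65 and not well above background in PA4, against 6.45 to 6.74. Of the matrix and secreted proteins, *Ccn3* was high in PV1 (11.67), *Spon1* high in PA2 (15.74), *Comp* low in PA4 (10.76) and *Col4a4* high in PA3 (6.93). Of the receptors, transporters and membrane proteins, *Lrrtm3* was low in PA1 (9.62), *Npr2* low in PV2 (11.63), *Tgfbr2* high in PV1 (12.60), *Rxfp1* low in PA3 (4.69) and *Slc2a1* high in PV2 (11.12 against 10.13 to 10.29).

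Of the markers of other cell types, *Cx3cr1* was low in PA1 (13.25 against 14.27 to 14.47) and *Tpsb2* high in PV1 (7.66). *Scgb1a1* was high in PA2 (7.80) and low in PV2 (4.81 against 6.19 to 6.35). *Myh2* in PV3 (4.29) and *Sftpb* in PV4 (3.14) were apart at levels not well above background.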

How the results depend on the processing

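The direction of the comparison held under every alternative, with between 7360 and 8631 genes called, 4010 to 4799 higher in PA and 3186 to 3876 higher in PV. With 1 array left out at a time, 7360 to 7856 genes were called, 4010 to 4558 higher in PA and 3272 to 3416 higher in PV, and 455 to 513 were at least 4-fold higher in PA and 804 to 836 in PV. After normexp background correction, 280 genes were at least 4-fold higher in PA and 539 in PV, against 470 and 817. An offset of 50 is part of that correction and shrinks the differences of dim genes by construction. It was planned on the mean signal, which the files used here do not hold, and the version on the median signal was chosen after seeing the data. With the replicate number as a block, 7459 genes were called, although the labels do not say whether the numbers pair the arrays. With the slide and the row as blocks, 7670 and 7705 genes were called. The median difference over all genes tested fell from 0.15 to 0.04 after quantile normalization. Of 232 called genes that were named, 199 kept direction and call in all 22 alternatives with a test, and 33 lost the call in at least 1. Within slides and rows, *Snap25* alone among them changed direction, to 0.13 within slide 3. In the lists with at least 4 calls, the count moved by over 1.5 times for calcium handling genes higher in PA (2 with normexp against 4), pulmonary arterial hypertension genes higher in PV (3 with normexp against 5), autonomic neuron genes higher in PV (8 with normexp, with all 23 arrays in the fit or without PV3, against 5) and lung epithelial genes higher in PA (2 without PA3 against 4). Genes near background have levels that the arrays cannot order.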
